A study of Mus musculus with 6 samples.

Results

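The complement components, receptors and regulators were followed in the endothelium of the mouse small intestine. The 32 genes were listed by role, from the C1q chains that start the classical pathway to the membrane proteins that hold the cascade in check, and their probes were found through the RefSeq accession each probe carries. All 32 were on the array, with 50 probes, out of 22911 genes that could be named. The genes were not chosen by a threshold on these signals, but earlier results of these data were known when they were chosen. The samples were blood vascular endothelial cells (VECs, CD45-negative, CD31-positive, CD90-negative) and lymphatic endothelial cells (LECs, CD45-negative, CD31-positive, CD90-positive) that had been sorted from the small intestine of female mice without a stated treatment. There were 3 VEC samples, numbered 2, 3 and 4, and 3 LEC samples, numbered 6, 7 and 8, each of which was read on its own one-color Agilent array. Age and strain of the mice for the arrays are not given in the sources used here. Whether replicate samples were taken from different mice is not stated, and the p-values below measure only the spread between these samples, which may be technical. CD90 is also carried by fibroblasts, which the authors place among CD31-negative cells. Both groups were defined by the gate on CD45, CD31 and CD90, without a marker particular to lymphatic vessels.

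Complement is a cascade of mostly secreted proteins that tags particles and cells for uptake and can open pores in membranes. The classical pathway starts when C1q binds a target and its protease C1r activates C1s, which cuts C4 and C2. The lectin pathway reaches the same step through MBL and the MASP proteases, and the alternative pathway builds its own C3-cutting enzyme from factor B. All of them meet at C3, and a set of soluble and membrane-bound regulators protects the body's own cells, those of the vessel wall among them. The liver is the main source of most circulating components, while C1q comes largely from macrophages and related cells.

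The gate was checked against the markers of both vessel types. All 8 lymphatic markers, Prox1, Lyve1 and Pdpn among them, were higher in LECs, with a summed signal of 1400 to 1450 in LECs and 2.77 to 3.42 in VECs (linear signal relative to the 75th percentile of each array). All 8 blood vascular markers, such as Flt1 and Plvap, were lower, with 141 to 150 against 1330 to 1470. One label of the LEC samples, the free-text description, reads VECs; the groups were taken from the titles and sources, which read LECs. The 75th percentile was 333 to 375 intensity units in VECs and 381 to 441 in LECs, 30930 to 35510 probes per array were well above background, and no spot was saturated. A level below is the log2 signal minus that percentile, and a difference is LEC minus VEC on that scale; levels of different probes are not comparable with each other.

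Of the 32 complement genes, 17 were well above background on all 6 arrays and 7 on none. Testing required a probe with signal well above background throughout the 3 arrays of VECs or of LECs, which held for 19 genes with 30 probes; C1qa and C2 passed through LECs only, and 6 further genes gave signal on scattered arrays without passing. Of the 19, LECs had 9 at a higher level (47.4%) and 4 at a lower one (21.1%), and the remaining 6 missed the threshold (limma, adjusted p under 0.05). The cell types differed widely, since of 14971 named genes tested 66.9% passed, 34.9% higher and 32% lower in LECs. The share of complement genes that passed, 68.4%, was thus near that of all genes. Differences over 5-fold were found for 4 complement genes toward LECs (21.1%, against 4.68% of all genes), C2, C3, Cd55 and Serping1, and for 0 toward VECs (against 5.19%). The median difference was 0.39 and the median absolute difference 1.07, against 0.02 and 0.46 over all named genes. In sorted bulk samples, a change in the share of cells that make a transcript and a change in the amount per cell cannot be told apart.

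**Figure D1:**
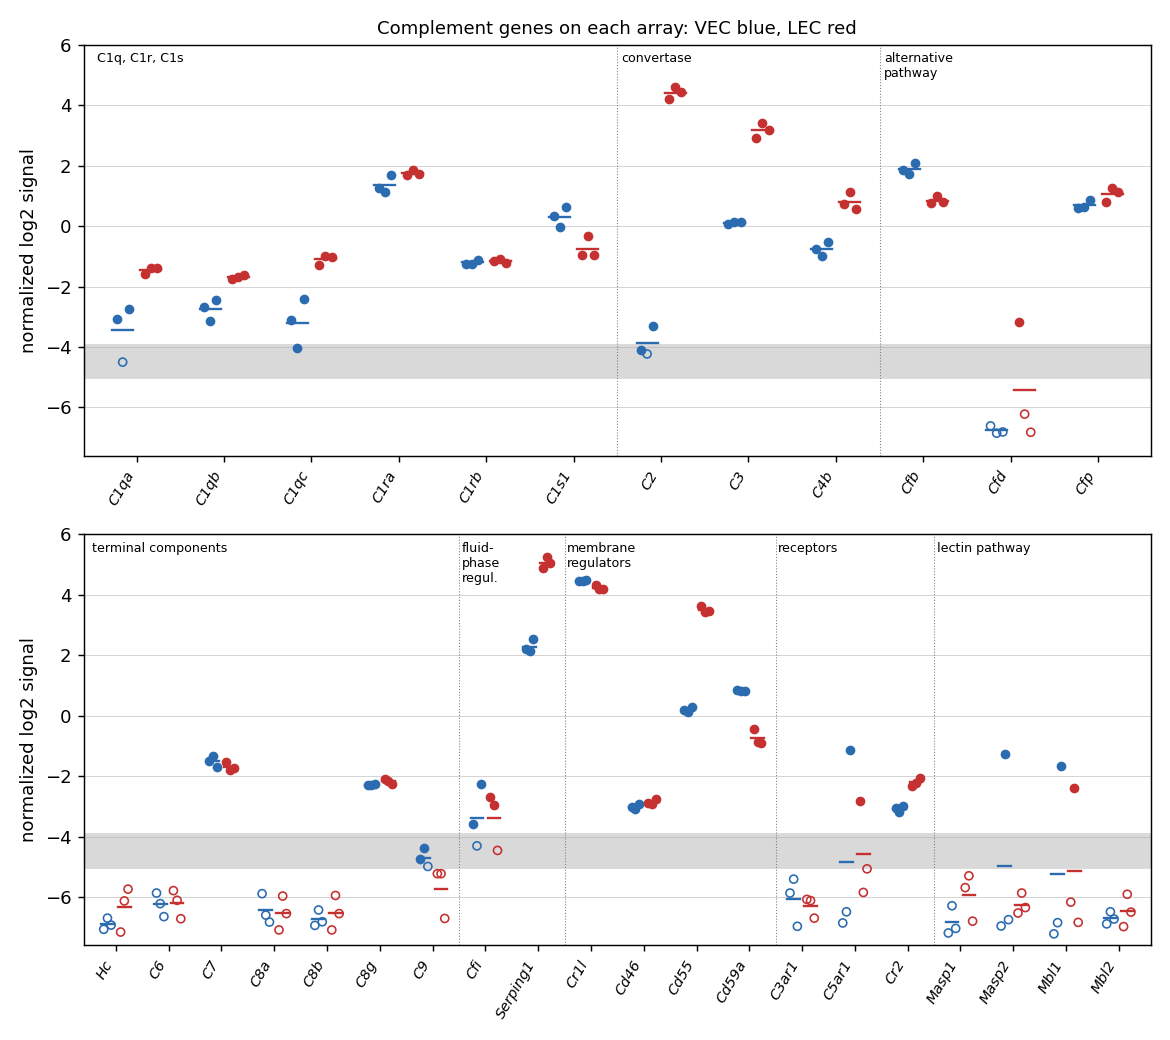
The 32 complement genes by role, with VEC arrays in blue and LEC arrays in red; the vertical axis is the level (log2 signal minus the array's 75th percentile), lines are group means of 3 arrays, open points were not well above background, and the gray band covers the detection limits of the 6 arrays (-5.03 to -3.92), each the dimmest level called well above background. C2, C3, Cd55 and Serping1 stand far higher in LECs, and 7 genes have open points on every array.

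Promoter sequences are shown for 3 genes that lie on both sides of the comparison, C3 and Cd55, which were higher in LECs, and Cd59a, which was lower. Each is the 250 bases before the start of the gene, read 5′ to 3′ along the gene, from RefSeq on GRCm38.p6. C3 lies on the minus strand at chr17:57228137-57228386, Cd55 on the minus strand at chr1:130462745-130462994 and Cd59a on the plus strand at chr2:104095551-104095800. Capitals mark the letters of a motif found on either strand.
C3: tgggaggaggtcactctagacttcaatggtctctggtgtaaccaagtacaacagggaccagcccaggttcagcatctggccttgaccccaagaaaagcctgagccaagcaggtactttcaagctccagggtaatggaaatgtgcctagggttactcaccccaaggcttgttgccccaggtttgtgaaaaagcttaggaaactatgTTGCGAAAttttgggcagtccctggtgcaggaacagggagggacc
Cd55: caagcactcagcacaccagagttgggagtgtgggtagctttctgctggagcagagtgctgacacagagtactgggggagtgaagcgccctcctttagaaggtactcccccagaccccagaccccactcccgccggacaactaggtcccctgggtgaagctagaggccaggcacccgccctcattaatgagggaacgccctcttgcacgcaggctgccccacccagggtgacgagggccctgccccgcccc
Cd59a: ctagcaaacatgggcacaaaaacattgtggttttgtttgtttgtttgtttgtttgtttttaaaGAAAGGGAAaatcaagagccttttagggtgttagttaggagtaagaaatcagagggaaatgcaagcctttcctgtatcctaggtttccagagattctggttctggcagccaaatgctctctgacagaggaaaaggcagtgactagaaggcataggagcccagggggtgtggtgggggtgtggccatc

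The letters of 4 motifs of factors known from inflammation were searched on both strands of such windows, of which 25 of the 32 genes had one. C1qa, C2, C4b, Cfb, Cfi, Serping1 and Masp1 had no window and were not searched. The C/EBP letters TTGCNNAA were found in 4 of the 25 (C1rb, C1s1, C3 and C9) and in 9.55% of 27025 promoters; in C3 the match TTGCGAAA began 45 bases before the start. The interferon-gamma activated site TTCNNNGAA was found in 4 (C1rb, C7, C8a and Masp2; 7.14% of promoters). The core of the interferon-stimulated response element, GAAANNGAA, was found in 2 (C5ar1 and Cd59a; 7.16% of promoters), beginning 187 bases before the start in Cd59a. The NF-kappaB letters GGNNTTTCC were found only in C3ar1 among the 25 (4.82% of promoters), and Cd55 held none of the 4. The matches of both motifs in C1rb did not overlap. These are matches of letters, and binding was not measured.

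C3 and the genes of the classical C3-cutting enzyme, C2 and C4b, were all higher in LECs. C2 is the protease whose cut fragment forms the active part of that enzyme. Its level was -4.09, -4.23 and -3.29 on the VEC arrays 2, 3 and 4 and 4.19, 4.59 and 4.42 on the LEC arrays 6, 7 and 8, the order kept for all values below, at intensities of 17.8 to 38.4 against 7860 to 9470. The groups lay far apart, and VEC 3 was not well above background. The measured difference was 8.27 (SE 0.26, n = 3 per group, 309-fold, limma adjusted p = 2.8e-06), with C2 entering the test through its LEC arrays. The fold rests on the dim VEC signals, and with normexp background correction, which lifts dim signals, the difference was 6.18.

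C3 is the central component, cut by every pathway. Its brighter probe gave 0.07, 0.12 and 0.14 in VECs and 2.92, 3.40 and 3.18 in LECs, a difference of 3.06 (SE 0.13, 8.33-fold, limma adjusted p = 7.2e-06). The other C3 probe gave -2.73, -2.97 and -2.14 against 3.93, 4.46 and 4.23, a difference of 6.82 (SE 0.24, 113-fold, limma adjusted p = 4.3e-06). Both probes placed every LEC array above every VEC array, but they disagreed on the size, and their mean difference was 4.94. Which part of the transcript each probe reads is not given in the files used here.

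C4b encodes the fourth component, which together with C2 forms the enzyme. Its brighter probe gave -0.76, -1.0 and -0.53 in VECs and 0.74, 1.11 and 0.55 in LECs. All LEC arrays were above all VEC arrays, by 1.56 (SE 0.18, 2.95-fold, limma adjusted p = 0.00058), and the other probe differed by 1.49 (2.80-fold). The closely related C4a was dim in both groups, at intensities of 12.8 to 17.1 in VECs and 41.8, 184 and 49.5 in LECs. The probes may not tell the paralogs apart.

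The recognition molecule C1q is built of 3 chains, encoded by the neighboring genes C1qb, C1qc and C1qa. C1qa gave -3.06, -4.50 and -2.75 in VECs and -1.57, -1.38 and -1.40 in LECs. C1qb gave -2.68, -3.15 and -2.43 against -1.75, -1.68 and -1.61, and C1qc -3.12, -4.04 and -2.41 against -1.29, -0.98 and -1.03. In each of the chains the LEC arrays were close together and above all VEC arrays, and VEC 3 was the lowest array. C1qa was 3.97-fold higher in LECs (with VEC 3 not well above background; difference 1.99, SE 0.45, limma adjusted p = 0.0090), C1qb 2.10-fold (1.07, SE 0.18, adjusted p = 0.0030) and C1qc 4.26-fold (2.09, SE 0.40, adjusted p = 0.0046). All of them were dim, at intensities of 14.7 to 70.6 in VECs and 119 to 216 in LECs, and with normexp background correction the differences were 0.93, 0.54 and 1.02. With the row of the slide as a block, which leaves LEC 6 against the VECs, C1qa (1.87, adjusted p = 0.077) and C1qc (1.90, adjusted p = 0.052) no longer passed in limma. Without VEC 3 the difference of C1qa was 1.46 and that of C1qc 1.67.

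Macrophage markers moved in part with C1q, although the sort removed CD45-positive cells. Of 12 markers 10 could be tested. Adgre1 (intensity 3.53 to 17.7 in VECs and 62.5 to 87.7 in LECs), Cx3cr1, Lyz2 and Ms4a7 were higher in LECs. Mertk, Cd68, Cd14 and Itgam were lower, and the others, Csf1r among them, did not pass. For Itgam the difference was small (-0.22, limma adjusted p = 0.028), and its call or direction changed in 8 of 19 alternatives. Its other probe, at intensities of 20 to 29.5, did not pass (limma adjusted p = 0.092). Cd163 and Fcgr1 were well above background on no array. VEC 3 was the lowest array for the 4 that were higher, as for the C1q chains. This was not particular to them, since VEC 3 was also lowest for C2, C4b, Serping1 and the fibroblast markers Dcn and Col3a1. The summed signal of the list was 69.3 to 74.7 on the LEC arrays and 81.5 to 87.1 on the VEC arrays, and without Itgam, a single bright probe that carried the sum, it was 5.01 to 5.51 and 7.09 to 7.54. Ptprc, which encodes CD45, was well above background on 2 arrays of each group and could not be tested; its brighter probe had intensities of 5.68 to 18.6 in VECs and 23.9 to 37.5 in LECs, without overlap and again with VEC 3 lowest. The part of these cells in the C1q signal was not tested.

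**Figure D2:**
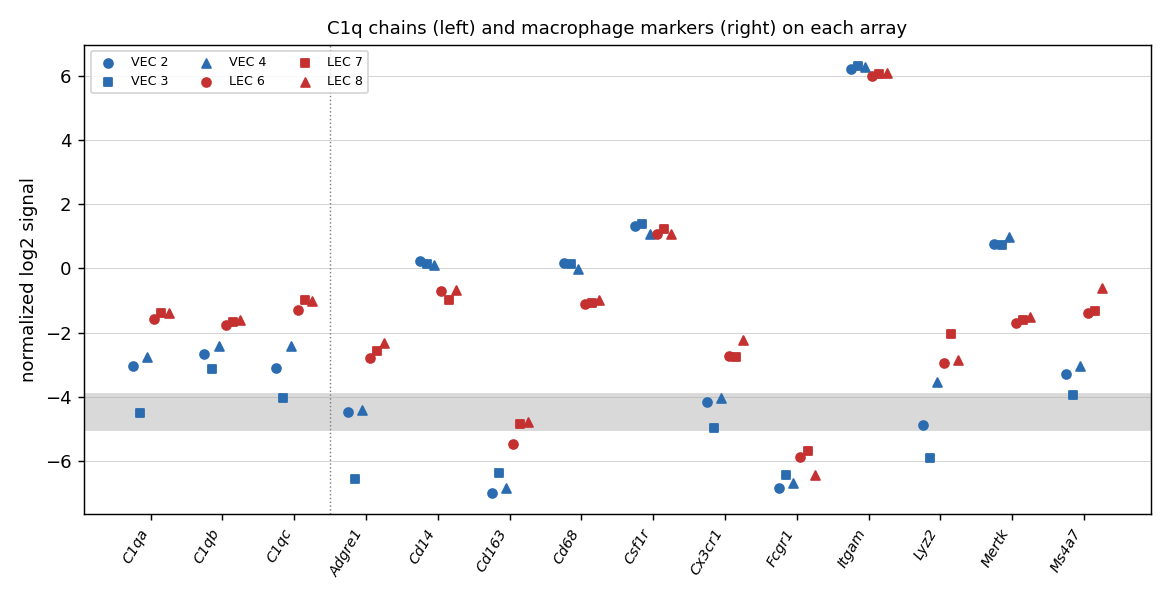
Levels (log2 signal minus the array's 75th percentile) of the C1q chains, left of the dotted line, and 11 of the macrophage markers on each array, with marker shapes telling the arrays apart. VEC 3 (blue squares) is lowest for C1qa, C1qb and C1qc and for Adgre1, Cx3cr1, Lyz2 and Ms4a7, while Mertk, Cd68 and Cd14 are higher in VECs.

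Of the proteases of the C1 complex, C1s1 was lower in LECs, and C1ra and the brighter probe of C1rb did not pass. C1s1, which encodes the C1s that cuts C4 and C2, gave 0.32, -0.02 and 0.64 in VECs and -0.95, -0.34 and -0.97 in LECs. LEC 7 came nearest to the VECs without overlapping them, and C1s1 was 2.09-fold lower in LECs (difference -1.07, SE 0.24, limma adjusted p = 0.0087). Its near copy C1s2 differed by -1.15, and the probes may not tell them apart. C1ra, one of the genes for C1r, which activates C1s, gave 1.27, 1.14 and 1.68 in VECs and 1.69, 1.87 and 1.72 in LECs. The groups did not overlap, but LEC 6 lay just above VEC 4, and the difference of 0.39 (SE 0.15, limma adjusted p = 0.062) did not pass. It passed without VEC 4 (0.55, adjusted p = 0.0052). For C1rb the brighter probe differed by 0.05 (SE 0.067, adjusted p = 0.58) and the other by 0.47 (SE 0.15, 1.39-fold, adjusted p = 0.034).

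In the alternative pathway, Cfb, which encodes the protease factor B, was lower in LECs. Its brighter probe gave 1.84, 1.72 and 2.09 in VECs and 0.76, 0.99 and 0.78 in LECs. The groups were well separated, by -1.04 (SE 0.12, 2.06-fold, limma adjusted p = 0.00055), and the other probe differed by -1.20 (2.30-fold, adjusted p = 0.0018). Cfb and C2 are adjacent genes with related products, and they lay on opposite sides of the comparison. Cfp, which encodes properdin, the stabilizer of the alternative C3-cutting enzyme, gave 0.61, 0.63 and 0.85 in VECs and 0.78, 1.27 and 1.13 in LECs. LEC 6 lay within the VEC range, and the difference of 0.36 (SE 0.15, limma adjusted p = 0.070) did not pass; without LEC 6 it was 0.50 (adjusted p = 0.013), and 0.08 in the fit with the slide row as a term. Cfd, the factor D that cuts factor B, was well above background only on LEC 6, at an intensity of 47.6 against 2.89 to 5.10 on the other arrays with the same probe.

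The terminal components, which form the pore, showed little signal. Hc, which encodes C5, and C6, C8a and C8b were well above background on no array, and C9 on 2 VEC arrays, at an intensity of 16 or less on every array. C7, which anchors the growing pore in the membrane, gave -1.49, -1.34 and -1.70 in VECs and -1.55, -1.81 and -1.74 in LECs. The groups overlapped, and the difference of -0.19 (SE 0.12) did not pass in limma (adjusted p = 0.21). C8g, which encodes the smallest chain of C8, gave -2.31, -2.30 and -2.25 against -2.09, -2.16 and -2.26, which also overlapped (0.12, SE 0.070, adjusted p = 0.19). The sign of both depended on the processing, since without scaling C7 differed by 0.04, and with normexp C8g differed by 0.00.

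Among the regulators in solution, Serping1 was higher in LECs. It encodes the C1 inhibitor, which takes apart C1r and C1s and also restrains the MASP proteases. Serping1 gave 2.19, 2.12 and 2.53 in VECs and 4.87, 5.24 and 5.04 in LECs, at intensities of up to 2170 and at least 12600. Every LEC array was far above every VEC array (2.77, SE 0.15, 6.81-fold, limma adjusted p = 2.1e-05). Cfi, the factor I that cuts C3b and C4b, could not be tested, since it was well above background on 2 arrays of each group and ranged from 16.8 to 77.8 intensity units in VECs and from 20 to 66.1 in LECs.

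Markers of fibroblasts, which also carry CD90 and make several of these proteins, were in part higher in LECs. Of 12 fibroblast markers 7 could be tested. Col1a1, Col3a1, Dcn (314 to 450 intensity units in LECs and 27.0 to 96.5 in VECs), Loxl1 and Gdf10 were higher in LECs, Pi16 was lower and Col1a2 did not pass. Pdgfra, a defining marker, was well above background on 0 LEC arrays and 1 VEC array. The summed signal was 2.92 to 3.72 on the LEC arrays and 3.62 to 4.20 on the VEC arrays, and without Pi16, which carried most of it in VECs, 2.56 to 3.33 and 0.999 to 1.71. Of 5 glial markers 4 were higher in LECs as well, Sox10, S100b and Gfap among them, with a sum over the list of 2.53 to 3.18 against 0.324 to 0.475. Epithelial markers summed to 6.40 to 10.8 in LECs and 3.29 to 5.84 in VECs, with Lgals4 and Lyz1 the brightest in LECs. Of 6 tested, Lgals4 and Fabp2 were higher in LECs and Vil1 was lower. Platelet and red cell markers summed to 0.848 to 2.20 in LECs and 12.5 to 29.5 in VECs. Hba-a1 carried that sum in VECs, at intensities of 4600 to 9700 against 153 to 659 in LECs. Of 4 tested, Pf4 was higher in LECs, and Hba-a1 and Alas2 were lower. Markers of mural cells summed to 29.9 to 39.2 in LECs and 43 to 50.8 in VECs, with 3 of 8 lower in LECs and 0 higher. The part of these cells in C2, C3, C4b, C1q, C1s1 and Serping1 was not tested.

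The membrane regulators went in both directions. Cd55, decay-accelerating factor, which splits the C3-cutting enzymes on the cell surface, gave 0.19, 0.13 and 0.27 in VECs and 3.63, 3.42 and 3.47 in LECs. The spread within each group was small beside the gap, and Cd55 was 9.93-fold higher in LECs (difference 3.31, SE 0.081, limma adjusted p = 1.2e-06). The other 2 probes differed by 2.97 (7.86-fold) and 2.95 (7.74-fold), so that all 3 probes gave the same direction and a like size.

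Cd59a, which blocks the last step of the pore, was lower in LECs. It gave 0.85, 0.80 and 0.80 in VECs and -0.45, -0.87 and -0.92 in LECs. The VEC arrays were nearly equal and all above the LEC arrays, and Cd59a was 2.95-fold lower in LECs (difference -1.56, SE 0.13, limma adjusted p = 0.00016). The other probe differed by -1.87 (3.65-fold, adjusted p = 7.8e-05). Cd55 and Cd59a, which act on the C3-cutting enzymes and on the last step of the pore, thus stood on opposite sides.

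Cr1l, which encodes Crry, the rodent inhibitor of C3 activation on cells, was bright in both groups. It gave 4.44, 4.44 and 4.48 in VECs and 4.33, 4.18 and 4.17 in LECs. The groups did not overlap, but the difference was small (-0.23, SE 0.070, 1.17-fold, limma adjusted p = 0.029), the other probe did not pass (-0.16, adjusted p = 0.095), and the call was lost in 10 of 19 alternatives. Over these 19 the difference ranged from -0.28 to 0.00. Cd46, membrane cofactor protein, which in mice is found mainly in the testis, was dim and gave -3.01, -3.10 and -2.92 in VECs and -2.88, -2.91 and -2.77 in LECs. The groups lay side by side without overlapping, and the difference of 0.16 (SE 0.077, limma adjusted p = 0.11) did not pass.

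**Figure D3:**
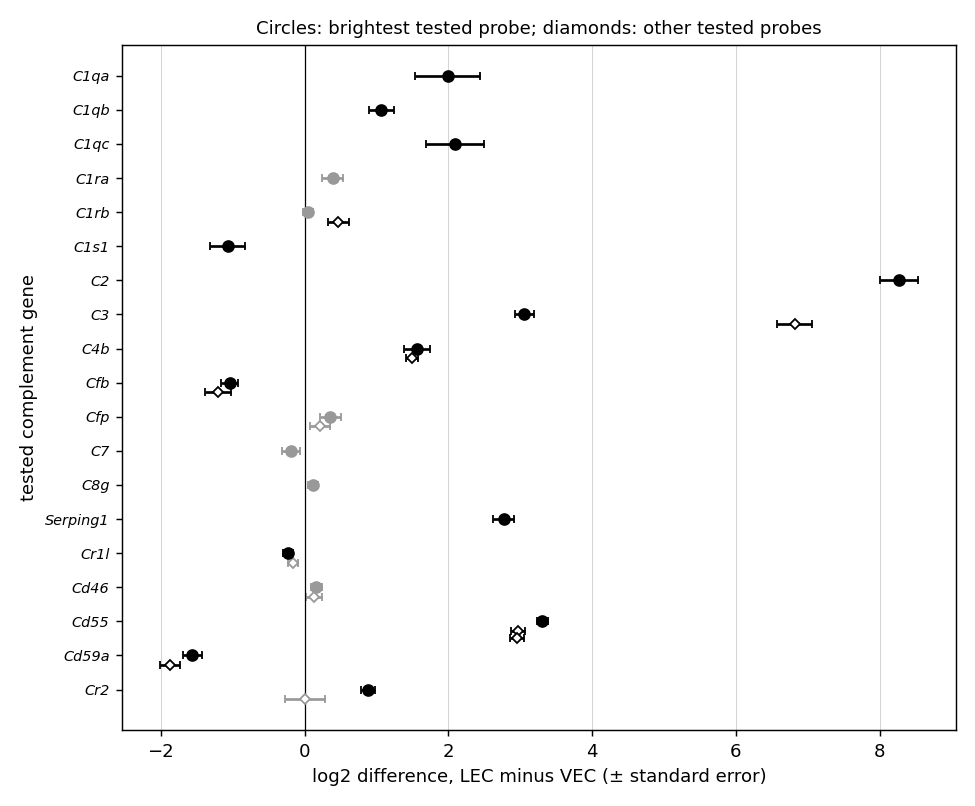
Differences (LEC minus VEC, log2) of the 19 tested complement genes with their standard errors, n = 3 arrays per group; circles are the brightest tested probe of a gene, diamonds its other tested probes, black has an adjusted p under 0.05 and gray does not. C2 lies farthest to the right (8.27), the C3 probes lie apart (3.06 and 6.82), and the 3 Cd55 probes lie close together (2.95 to 3.31).

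Of the receptors among the genes listed by role, Cr2 was the one that could be tested. It encodes the receptor for C3 fragments, known from B cells and follicular dendritic cells, with another receptor form from the same gene. The brighter probe gave -3.07, -3.19 and -2.99 in VECs and -2.33, -2.23 and -2.05 in LECs, which did not overlap (0.88, SE 0.098, 1.84-fold, limma adjusted p = 0.00049). At intensities of 36.6 to 107 it was dim, with normexp the difference was 0.30, and the second probe differed by 0.01 (SE 0.28, adjusted p = 0.97), and its remaining probe was above background on no array. C3ar1, the receptor for C3a, was well above background on no array. C5ar1, the receptor for C5a, was so on VEC 4 (169) and LEC 6 (61.7) and at 3.12 to 13.2 intensity units on the other arrays.

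Of the genes listed by role, those of the lectin pathway, Masp1, Masp2, Mbl1 and Mbl2, could not be tested. Fcna, a ficolin of this pathway from a further list, could be tested and is given below. Masp1 and Mbl2 were well above background on no array. Masp2, the protease that cuts C4 and C2, had 1 probe at 139 on VEC 3 and 2.91 to 6.51 on the other arrays. Mbl1, a mannose-binding lectin, stood at 118 on VEC 4 and 72.2 on LEC 7 and at 2.43 to 5.98 elsewhere. Such single bright arrays followed neither group.

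The rest of the pathway was covered by a list of 32 further complement genes, 31 of them on the array. Of these 20 could be tested. LECs had higher signal of 10 and lower signal of 8, and Itgax and Colec12 did not pass. The 8 include Cfhr2, whose probes went in opposite directions, and Itgam, whose call or direction changed in 8 of 19 alternatives. The median difference was 0.56, and the median absolute difference 1.76 against 0.46 over all named genes. The share that passed was 90% against 66.9% of all named genes (34.9% higher, 32% lower), and the filter let some in through the group where they were high. The list was also chosen with earlier results of these data known. Its shares and medians therefore cannot show that the pathway differs more than other genes. Differences over 5-fold were found for 5 genes toward LECs and 2 toward VECs, against 4.68% and 5.19% of all named genes.

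Of these, Susd4, a membrane protein with complement control repeats, had intensities of 69.1, 62.3 and 106 in VECs and 7820, 9060 and 9040 in LECs (difference 6.58, SE 0.19, 95.7-fold, limma adjusted p = 2.1e-06). The groups were far apart. The recognition molecules Fcna, a ficolin of the lectin pathway, and Ptx3, a pentraxin that binds C1q, were well above background on every LEC array and on no VEC array, and entered the test through LECs. With the background correction used, they were at least 33.9-fold and at least 10.1-fold higher in LECs than the detection limit of the VEC arrays. On the log2 scale these bounds were 5.08 and 3.34. With normexp, which lifts the VEC signals, the log2 differences were smaller, 3.1 and 1.62. Cd55b, the gene next to Cd55, was 7.91-fold higher by its brighter probe (difference 2.98, limma adjusted p = 4.0e-06), or 2.09 on the log2 scale with normexp. Its other probe, on no VEC array well above background, was at least 2.88-fold higher. The probes may not tell Cd55b and Cd55 apart.

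Toward VECs stood Cd93, an endothelial surface protein once taken for a C1q receptor, and Clu, clusterin, which binds the forming pore in solution. Cd93 had intensities of 49300, 45800 and 47400 in VECs and 4460, 3370 and 4220 in LECs and was 13.9-fold lower in LECs (difference -3.80, SE 0.083, limma adjusted p = 8.2e-07). Clu was 8.90-fold lower (-3.15, SE 0.10, adjusted p = 3.0e-06). The paralog Cd59b was dim, well above background on 1 LEC array, and lower in LECs like Cd59a (-1.19, limma adjusted p = 8.8e-05, and -0.46 with normexp). The probes may not tell Cd59b and Cd59a apart. Of the C5a receptors, C5ar2 was well above background on all arrays and 3.38-fold higher in LECs (adjusted p = 6.7e-05). For Cfhr2 the brighter probe was lower in LECs (-0.70) while the other was higher (7.16, with 1 VEC array well above background), so no direction is given for it.

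**Figure D4:**
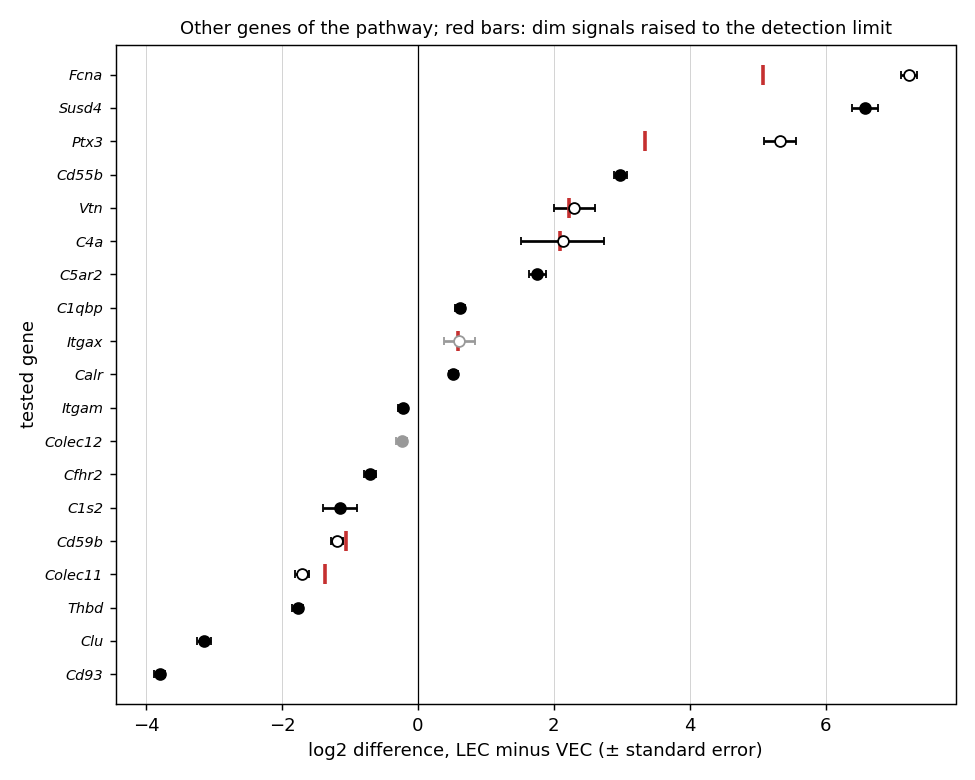
Differences (LEC minus VEC, log2) with standard errors, n = 3 arrays per group, of 19 of the further complement genes tested, in order of size; open circles mark genes whose dimmer group was not well above background on all 3 arrays, with a red bar where the difference falls once dim signals are raised to the array's detection limit, and gray marks an adjusted p of 0.05 or more. Fcna and Susd4 lead toward LECs, and Cd93 (-3.80) and Clu (-3.15) toward VECs.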

How the data were processed

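Endothelial cells were sorted from mouse small intestine after removal of the epithelium and collagenase digestion, and RNA of 3 VEC and 3 LEC samples was amplified, labeled with Cy3 and hybridized to 6 one-color arrays on 1 slide. The authors deposited an intensity per spot, background-subtracted by Agilent Feature Extraction 12.0.3.1 per the file headers and not scaled between arrays, and a table of log2 values. For at least 99.9% of probes, the deposited log2 values lay within 0.01 of the log2 intensity minus 1 constant per array, and were used as another input.

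Intensities were turned into log2 values, outlier spots were set missing (97 to 122 per array), replicate spots were averaged and each array's 75th percentile was subtracted. Probes well above background on all 3 arrays of a group were tested with limma 3.58.1 in R 4.3.3 (lmFit, eBayes without trend, two-sided), with Benjamini-Hochberg adjustment over 33776 probes and a threshold of 0.05. A gene was represented by its brightest tested probe. Where a group was well above background on none of its arrays, a fold is given as a bound, computed per array against the lowest signal well above background (12.1 to 25.1 intensity units). Such a bound holds only for the background correction used. The number of arrays limits the precision. Probes were named through unversioned RefSeq accessions of GRCm38.p6, which named 58.3% of 56605 probes. The fit was tested on simulated data. The members and lists were chosen with earlier results of these data known. Every member is accounted for, with further complement genes named where they passed with over 5-fold, except that items withheld for evaluation are not reported here; C1s2, C4a, C5ar2, Cd59b, Itgam, Cfhr2 and the genes that did not pass were named after their values were seen. Alternatives were other background corrections, scalings, filters, probe rules, variance models, the methods' one-way ANOVA, the slide row as a block and leaving out each array.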

Additional observations from a re-analysis of the deposited data

How the results depend on the processing

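Over up to 19 alternatives, 11 of the 19 tested complement genes kept their direction and call, and 8 changed. The number of complement genes higher in LECs ranged from 7 to 13 and lower from 3 to 4; it was 9 to 10 and 3 to 4 when 1 array was left out, and 7 and 3 in the fit with the slide row as a term. Without scaling between arrays, the median difference of all named genes moved from 0.02 to 0.24, 67.4% of the genes passing were higher in LECs against 52.2%, 3026 named genes were lower against 4796, and C7 (0.04) and Itgam (0.01) changed sign. With normexp, C8g (0.00) and Cd46 (-0.04) changed sign. With the mean of probes, Cfhr2 turned to 3.23 from -0.70. With only probes well above background on all 6 arrays, 6 further complement genes were higher against 10, since fewer could be tested. C1ra and Cfp passed with an intensity trend, with normexp and without scaling; the cause was not tested. C4a lost its call in 7 of 18 alternatives, and without LEC 7 its difference was 1.40 against 2.13. No paired analysis was possible because the groups share no replicate number. Naming probes by gene name was not run, since the files used here hold no such column, and normexp used median signals in place of mean signals. Genes near background, such as C1qa, Cr2 and Cd46, are limited by the signal over background, and no signal well above background does not show that a transcript is absent. The sums of macrophage and fibroblast markers without Itgam or Pi16 were added after seeing the data.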
